A study of Mus musculus with 5 samples.

Results

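Transcripts of 10 genes of glucose uptake, glycolysis and lactate formation were followed in single T cells from the mouse brain. The genes were Slc2a1, Gpi1, Aldoa, Tpi1, Gapdh, Pgk1, Pgam1, Eno1, Pkm and Ldha. The list names genes and uses no threshold on measured values. They are 10 of 52542 gene rows outside spike-ins, and all 10 had at least 1 UMI (unique molecular identifier, which counts 1 captured RNA molecule) among the 15952 genes seen in kept cells. The list is named for glycolysis enzymes, but Slc2a1 encodes a glucose transporter and Ldha acts on pyruvate, the end product of glycolysis, so 8 of the 10 are glycolytic enzymes in the strict sense.

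All mice were of the Grl1loxP/loxP strain, which carries loxP-flanked glucocorticoid receptor alleles, and all received foot shocks in 2 sessions, 14 of 1 mA and then 5 of 0.7 mA. TAT-CRE, a recombinase protein that enters cells, had been injected into the brain ventricles of mice 207, 208 and 215 (18, 18 and 19 weeks old), and PBS into those of mice 216 and 218 (19 and 16 weeks old). CD45+ CD11b- TCRβ+ T cells were taken on day 14 after the stress, 1 to each well, from brain tissue without the choroid plexus, the site where the design places the receptor knockdown. Recombination in the sorted T cells was not measured here. The injected protein has no promoter that restricts it to a cell type. Each library is labelled with a replicate number of its own and was taken as 1 mouse. Every mouse had its own plate and amplification batch, so plate or amplification effects and mouse effects cannot be told apart.

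Glycolysis splits glucose into pyruvate in the cytosol and yields a small amount of ATP without oxygen. T cells at rest rely largely on mitochondrial oxidation, and T cells that are activated or act as effectors raise glucose uptake and lactate formation. GAPDH has also been described to bind the mRNA of interferon gamma when glycolysis is low, and LDHA to support production of that cytokine. Cells were also divided by transcripts of 2 T cell states. Cxcr6 encodes a chemokine receptor of tissue-resident and effector T cells, and Klf2 encodes a transcription factor that keeps T cells recirculating.

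Kept were 1482 wells that held 1 cell. Each had a minimum of 400 UMIs, spike-ins not counted, and a mitochondrial share of no more than 30%. TAT-CRE 207, 208 and 215 gave 311, 303 and 298 of these cells and PBS 216 and 218 gave 296 and 274. Total kept UMIs were 362457 to 692346 in the TAT-CRE mice and 554994 to 839188 in the PBS mice. TAT-CRE 208 stood apart, with 28.3% of its UMIs on 4 ribosomal RNA genes, against 43.9% to 48.0% in the other 4 mice. These 4 genes were left out of all levels, which are given as CPM, counts scaled to a total of 1000000 over the remaining UMIs. All 8 T cell markers of the list were found, in 1359 of the 1482 cells. Of 8 endothelial markers, Pecam1, Ly6c1 and Itm2a had UMIs, in 247 cells, and Cldn5, Flt1 and Cdh5 were at 0. P2ry12, Tmem119 and Csf1r of microglia and all 4 neuronal markers were at 0 as well.

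The row of Gapdh, the glyceraldehyde-3-phosphate dehydrogenase gene and a common reference gene, held 2 UMIs in all 1482 cells. Both lay in PBS 218. Rows annotated as near copies of Gapdh (at least 95% identity over at least 100 bases of the last 1000 bases of its transcript) held 772 UMIs. There were 92 such copies in the GENCODE M21 annotation, 90 of them had a row in the count files and 57 had a UMI. The processed pseudogene Gm5559 alone had 354. Gapdh lies at chr6:125161715-125166467 on the minus strand and Gm5559 at chr5:95861714-95862715 on the plus strand (mm10). The last 90 coding bases before the stop codon are shown for Gapdh and for the matching stretch of 4 near copies. These 4 copies differ little from Gapdh in this stretch. They have the most UMIs among copies whose alignment spans the same length in both sequences. Gm7336 (47 UMIs) and Gm6316 (24 UMIs, 96.5% identity) did not meet this and are not shown. Tags of this method lie close to the end of the mRNA, but their positions were not examined. The alignment of Gm5559 ended at base 822 of the last 1000 bases of Gapdh. Capitals mark bases that differ from the member gene.
Gapdh: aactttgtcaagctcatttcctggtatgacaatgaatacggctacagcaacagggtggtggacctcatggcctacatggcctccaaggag
Gm5559: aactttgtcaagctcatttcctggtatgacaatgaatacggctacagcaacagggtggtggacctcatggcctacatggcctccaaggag
Gm2451: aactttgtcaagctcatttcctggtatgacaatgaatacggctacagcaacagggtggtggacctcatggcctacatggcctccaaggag
Gm12286: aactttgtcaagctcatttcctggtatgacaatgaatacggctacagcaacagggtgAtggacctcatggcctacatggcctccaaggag
Gm5139: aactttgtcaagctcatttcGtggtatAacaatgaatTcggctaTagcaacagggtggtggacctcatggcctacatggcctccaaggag
Gm5559 and Gm2451 had 0 differing bases in this stretch, Gm12286 had 1 and Gm5139 had 4. A read inside the identical stretches cannot be told apart between the loci by its sequence, and how the authors assigned such reads is not given in the sources used here. The 2 UMIs of the Gapdh row are therefore not read as a level of Gapdh mRNA.

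Eno1, the enolase gene (chr4:150236721-150248879, plus strand), showed the same on a smaller scale. Its row held 61 UMIs and its 3 near copies held 104, of which the processed pseudogene Gm4735 (chr2:80837141-80838442, plus strand) had 79. Here the last 90 coding bases differed at 2 places.
Eno1: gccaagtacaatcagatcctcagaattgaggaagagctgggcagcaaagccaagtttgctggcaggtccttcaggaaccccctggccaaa
Gm4735: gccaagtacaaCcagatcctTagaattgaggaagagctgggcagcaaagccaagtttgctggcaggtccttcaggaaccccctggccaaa
For the other members, near copies took few UMIs: 30 for Pgam1 beside 86 in its own row, 9 for Pgk1 beside 141, 8 for Pkm beside 417 and 2 for Tpi1 beside 54. The 2 annotated near copies of Ldha had no gene row in the counts, and Aldoa, Gpi1 and Slc2a1 had no near copy by this definition. In what follows, "Gapdh with near copies" and "Eno1 with near copies" are sums over these rows, formed after the counts had been seen. A pseudogene's own transcription cannot be told apart from the parent mRNA in these sums.

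**Figure D1:**
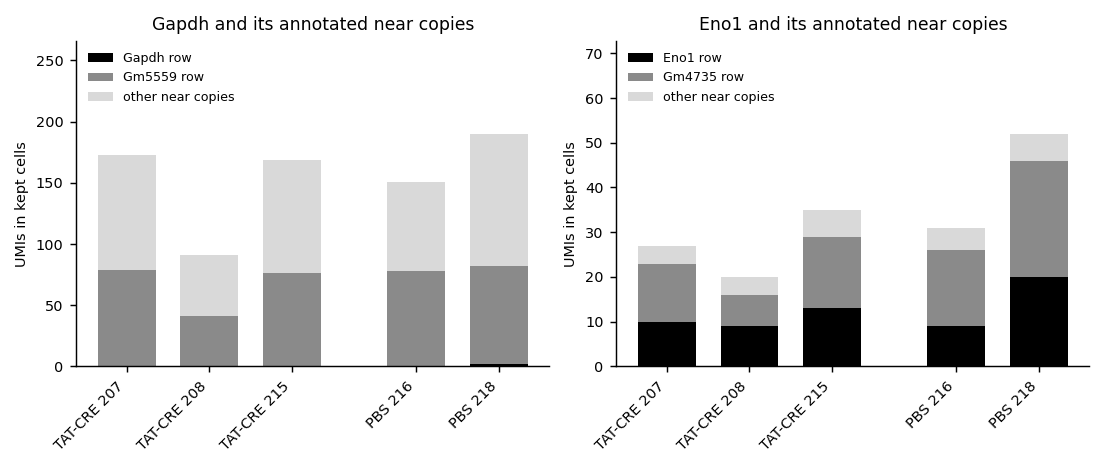
UMIs in kept cells of each mouse on the row of Gapdh (left) or Eno1 (right), on its most counted near copy and on all other near copies, stacked. Bars are counts without error bars. The Gapdh row is at 0 in 4 mice and at 2 UMIs in PBS 218, while Gapdh with near copies reaches 91 to 190 UMIs.

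Detection was sparse. Of the 1482 cells, 753 (50.8%) had no UMI of any member, 492 had UMIs of 1 member, 169 of 2 and 68 of 3 or more. Ldha was found in 241 cells, Aldoa in 194, Gpi1 in 187, Pkm in 183 and Pgk1 in 89. Pgam1 was found in 57 cells, Eno1 in 55, Tpi1 in 31 and Slc2a1 in 16. The 20 empty wells held 1 UMI of Ldha among 1095 UMIs and none of the other members or of the Gapdh copies. The number of UMIs per cell differed between members. Slc2a1 had 3.69 UMIs per cell with a UMI, against a median of 2.57 (quartiles 2.20 and 2.94) over the 5429 genes with 50 to 1000 UMIs. Eno1 had 1.11 and Gm4735 1.08, and Gm5559 had 1.38. UMIs of 1 cell are not independent, so the counting intervals plotted per mouse cover counting error only and are too narrow for clumped genes.

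All 10 members were set side by side in TAT-CRE and PBS mice to ask whether the level in brain T cells differed with the injection. No member passed the test. The comparison of 5996 genes called 0 of them (0%), at an adjusted p of 0.05 in edgeR's quasi-likelihood test on UMI sums per mouse, and 218 had an unadjusted p under 0.05. Of the members, 9 were abundant enough to be tested and Gapdh was not. Their median log2 fold change was -0.06, beside -0.00 over all genes tested. The adjusted p was 0.9996 for every member. In sums over cells, fewer cells with a transcript and fewer transcripts per cell cannot be told apart. DESeq2 called 1 gene (0.0167%), Ifit3, named after its value was seen. The p-values measure only the spread between these libraries.

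Slc2a1 (chr4:119108711-119137983) encodes GLUT1, the transporter that T cells raise on activation. Its level was 45.3, 23.1 and 6.54 CPM in TAT-CRE 207, 208 and 215 and 46.5 and 42.5 CPM in PBS 216 and 218. These values come from 3, 2 and 2 cells of the TAT-CRE mice and from 4 and 5 cells of the PBS mice, and the groups overlap. The log2 fold change was -0.80 ± 0.88 (SE), and it was -1.58 without TAT-CRE 207 and -0.35 without TAT-CRE 215. GLUT1 is also abundant in brain endothelium. Of the 16 cells with a Slc2a1 UMI, all 16 had a UMI of a T cell marker, 4 had one of an endothelial marker, and the endothelial markers Cldn5, Flt1 and Cdh5 were at 0 in all kept cells.

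Gpi1, Aldoa and Tpi1 act in the first stage, which turns glucose-6-phosphate into triose phosphates. Aldoa (chr7:126795234-126800751), the aldolase that splits fructose bisphosphate, was at 293, 273 and 239 CPM in TAT-CRE 207, 208 and 215, against 156 and 236 CPM in PBS 216 and 218. Every TAT-CRE mouse was above both PBS mice, though TAT-CRE 215 and PBS 218 were close. TAT-CRE mice averaged 268 ± 27.6 CPM (SD, n = 3) and PBS mice 196 ± 56.3 CPM (SD, n = 2), a log2 fold change of 0.45 ± 0.31 (SE) with an edgeR unadjusted p of 0.18. Without PBS 216 it was 0.20 and without PBS 218 it was 0.78. Gpi1 (chr7:34201330-34230336), the isomerase that forms fructose-6-phosphate, ranged from 157 to 243 CPM in TAT-CRE mice and from 187 to 252 CPM in PBS mice. Tpi1 (chr6:124810586-124814296), which interconverts the triose phosphates, ranged from 19.2 to 50.6 CPM in TAT-CRE mice and from 14.9 to 33.2 CPM in PBS mice. The groups overlapped for both, with log2 fold changes of -0.06 ± 0.33 and 0.68 ± 0.89 (SE). The Tpi1 value was 0.19 without PBS 218, 0.40 without TAT-CRE 207 and 1.35 without PBS 216.

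The second stage yields ATP and runs through Gapdh, Pgk1, Pgam1, Eno1 and Pkm. Pgk1 (chrX:106187100-106203699), which makes the first ATP of this stage, was at 80.0, 77.0 and 118 CPM in TAT-CRE 207, 208 and 215 and at 73.1 and 70.1 CPM in PBS 216 and 218. The groups did not overlap, but 2 of the TAT-CRE mice lay within 10 CPM of the PBS mice, and the log2 fold change was 0.36 ± 0.48 (SE). Without TAT-CRE 215 it was 0.13. Pkm (chr9:59656368-59679375), which forms pyruvate, was at 264, 212 and 258 CPM in the TAT-CRE mice and at 259 and 225 CPM in the PBS mice. Its log2 fold change of 0.02 ± 0.30 (SE) had an approximate 95% interval of -0.56 to 0.61. Pgam1 (chr19:41911923-41918660), a mutase, was at 36.0 to 61.3 CPM in TAT-CRE mice and at 53.1 and 53.2 CPM in PBS mice. The Eno1 row was at 26.7 to 42.5 CPM in TAT-CRE mice and at 29.9 and 42.5 CPM in PBS mice. Gapdh with near copies was at 461, 350.3 and 553 CPM in TAT-CRE 207, 208 and 215 and at 502 and 404 CPM in PBS 216 and 218, and its log2 fold change was 0.02 ± 0.27 (SE). Eno1 with near copies was at 72.0, 77.0 and 114 CPM in the TAT-CRE mice and at 103 and 110.5 CPM in the PBS mice. All these groups overlap except those of Pgk1.

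Ldha (chr7:46841475-46855627), the A subunit of lactate dehydrogenase, turns pyruvate into lactate and restores the NAD that the Gapdh step uses. It was at 336, 254 and 392 CPM in TAT-CRE 207, 208 and 215, against 399 and 565 CPM in PBS 216 and 218. All TAT-CRE mice were below both PBS mice, with TAT-CRE 215 and PBS 216 close to each other. TAT-CRE mice averaged 327 ± 69.5 CPM (SD, n = 3) and PBS mice 482 ± 118 CPM (SD, n = 2). The log2 fold change had an approximate 95% interval of -1.11 to 0.0033, which uses a normal distribution and is too narrow for 5 mice. The log2 fold change itself was -0.55 ± 0.28 (SE), with an edgeR unadjusted p of 0.073. Without PBS 218 it was -0.28 and without PBS 216 it was -0.76, and in these fits the lone PBS library is assumed to vary like the others. Without TAT-CRE 208, the mouse with fewer ribosomal RNA UMIs, it was -0.40. Of the endothelial marker list, only Pecam1, Ly6c1 and Itm2a had UMIs. Without cells holding such a UMI, Ldha was at -0.66 and Aldoa at 0.72. Whether the cells left out are endothelial was not tested. The summed level of 5 NK cell markers was also without overlap, at 13.1 to 85.3 CPM in TAT-CRE and 210.3 to 346 CPM in PBS mice. In Cxcr6 cells it was at 0 to 155 CPM in TAT-CRE mice and 346 to 374 CPM in PBS mice. NK was not the only such list in all kept cells. The CD4 list was at 661 to 762 CPM in TAT-CRE mice and 379 to 629 CPM in PBS mice. The B cell list was at 176 to 281 CPM in TAT-CRE mice and 130 to 168 CPM in PBS mice. The erythroid list, on 4 UMIs, was higher in PBS mice. All other lists overlapped or were at 0. Without the 60 cells holding an NK marker UMI, an alternative chosen after seeing the data, Ldha was at -0.56, Aldoa at 0.42 and Pgk1 at 0.38.

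Groups that did not overlap were thus seen for Aldoa, Pgk1 and Ldha, 3 of the 9 members with at least 50 UMIs. Of all genes with at least 50 UMIs, 18.7% (1056 of 5651) had groups that did not overlap in one direction or the other. The summed level of the 10 members was 1399, 1166 and 1291 CPM in TAT-CRE 207, 208 and 215 and 1302 and 1440.3 CPM in PBS 216 and 218.

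**Figure D2:**
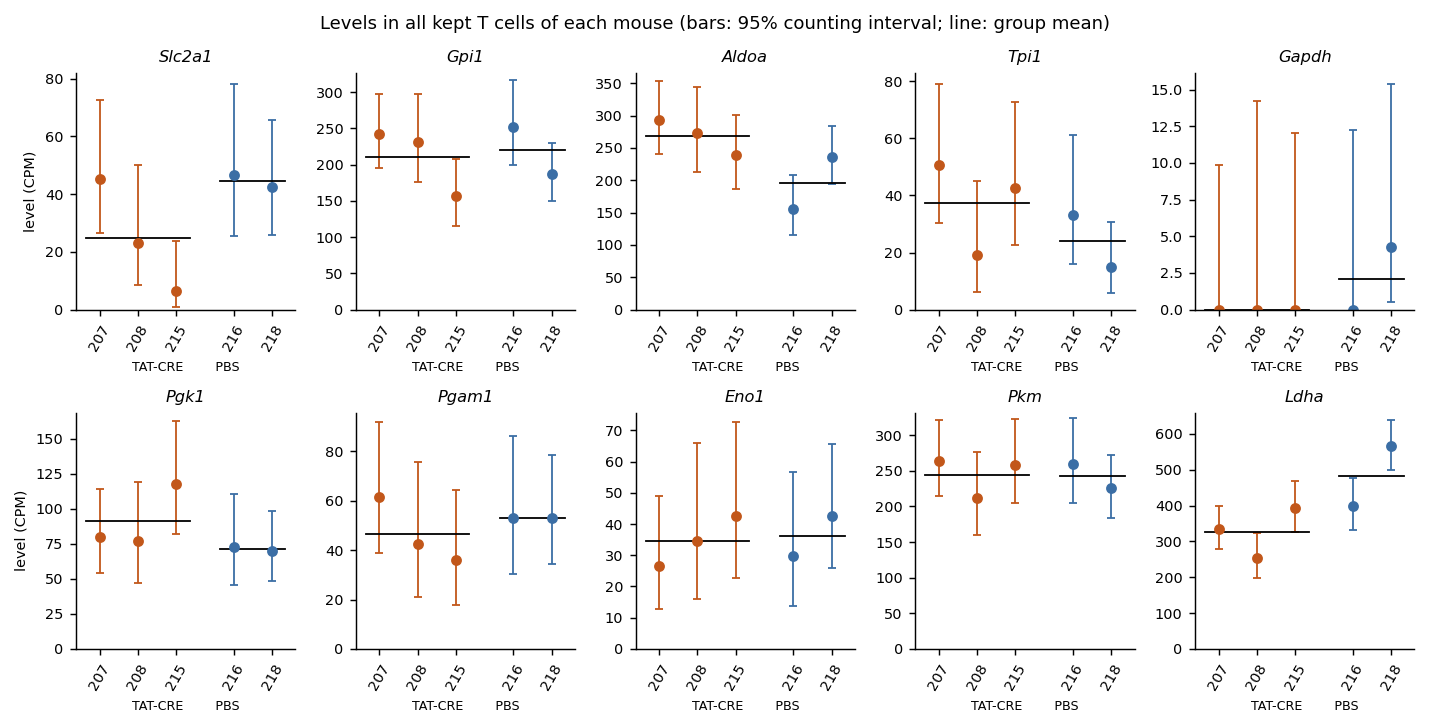
Level of each member in CPM on a linear axis from 0, for all kept T cells of each mouse, TAT-CRE mice on the left of each panel and PBS mice on the right. Points are mice, bars are exact 95% Poisson intervals for counting error, and lines are group means. Aldoa and Pgk1 points of TAT-CRE mice lie above those of PBS mice and Ldha points below, with intervals that overlap between the nearest mice.

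Cells were next compared by UMIs of Cxcr6 or Klf2, single genes that do not define a whole resident or recirculating program. Cxcr6 cells had a Cxcr6 and no Klf2 UMI (384 cells) and Klf2 cells the reverse (139 cells), while 49 cells had both and 910 neither. Both classes were summed per mouse, and the mouse was kept as a block in the test. Of 1150 genes tested, 7 (0.609%) were called, and none of the 4 members abundant enough to be tested was among them. Cxcr6 and Klf2 define the classes. Of the other 5, Id2, Nkg7 and Ccl5 belong to the effector list and were higher in Cxcr6 cells, with log2 fold changes of 1.43 ± 0.15, 1.25 ± 0.21 and 1.01 ± 0.17 (SE). AW112010 was higher and Dgka lower, 2 genes outside every list that are named here after their values were seen. DESeq2 called 17 genes (1.48%), again with no member. With a lower filter of 15 UMIs, added after seeing the data, 9 members could be tested and 37 of 6806 genes (0.544%) were called, none of them a member.

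Pkm had the largest difference of the 4 members tested. It was at 253, 314, 157, 317 and 203 CPM in Cxcr6 cells of TAT-CRE 207, 208 and 215 and PBS 216 and 218, and at 128, 132, 109, 188 and 287 CPM in Klf2 cells of the same mice. Cxcr6 cells were higher in 4 of 5 mice and lower in PBS 218. The log2 fold change was 0.62 ± 0.49 (SE), with an edgeR adjusted p of 0.78 and an approximate 95% interval of -0.34 to 1.58. Klf2 cells of all mice but PBS 218 gave only 3 to 6 Pkm UMIs each. Among CD8 cells alone, the Pkm UMIs were 61 in Cxcr6 cells and 9 in Klf2 cells of the 5 mice, 221 and 86.4 CPM, too few for the test.

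Aldoa was at 261, 259, 288, 283 and 224 CPM in Cxcr6 cells and at 384, 219.9, 145, 93.8 and 248 CPM in Klf2 cells, in the same order of mice. The Klf2 values lie on both sides of the Cxcr6 values and rest on 18, 5, 4, 3 and 19 UMIs, against 37, 14, 22, 25 and 33 in Cxcr6 cells, so their spreads are not compared. Gpi1 averaged 189 ± 97.4 CPM in Cxcr6 cells and 171 ± 88.4 CPM in Klf2 cells (SD, n = 5 mice each). Ldha was at 239, 333, 524, 442 and 305 CPM in Cxcr6 cells and at 384, 219.9, 363, 250.1 and 704 CPM in Klf2 cells. The log2 fold changes were 0.39 ± 0.47, 0.17 ± 0.60 and -0.00 ± 0.38 (SE), and the edgeR adjusted p-values were 0.85, 0.95 and 0.997. The Aldoa value was 0.71 without TAT-CRE 207, 0.23 without TAT-CRE 215 and 0.16 without PBS 216. The median of the 4 tested members was 0.28, beside 0.08 over all genes tested. The endothelial marker list summed to 297 ± 186 CPM in Cxcr6 cells and 432 ± 202 CPM in Klf2 cells (SD, n = 5 mice each), with Cldn5, Flt1 and Cdh5 at 0. Without cells holding a UMI of that list, which here means Pecam1, Ly6c1 or Itm2a, Pkm had a log2 fold change of 0.97. Ldha had -0.12, and neither was called. Whether the cells left out are endothelial was not tested.

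The other members were too rare in these classes for the test. Cxcr6 cells held 35 UMIs of Pgk1, 23 of Pgam1, 13 of Slc2a1 and 12 of Tpi1, and Klf2 cells held 17, 4, 15 and 8. Neither class held a UMI of the Gapdh row. Gapdh with near copies was higher in Cxcr6 cells in 2 mice and lower in 3, with a log2 fold change of -0.22 ± 0.32 (SE). Eno1 with near copies was at 56.3, 55.5, 131, 102 and 102 CPM in Cxcr6 cells and at 107, 88.0, 145, 156 and 143 CPM in Klf2 cells. Cxcr6 cells were lower in all 5 mice, as were 3.38% of 2843 genes with at least 50 UMIs in the classes, while 5.91% were higher in all 5. This rests on 45 UMIs in Cxcr6 cells and 27 in Klf2 cells and was below the filter of the test.

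**Figure D3:**
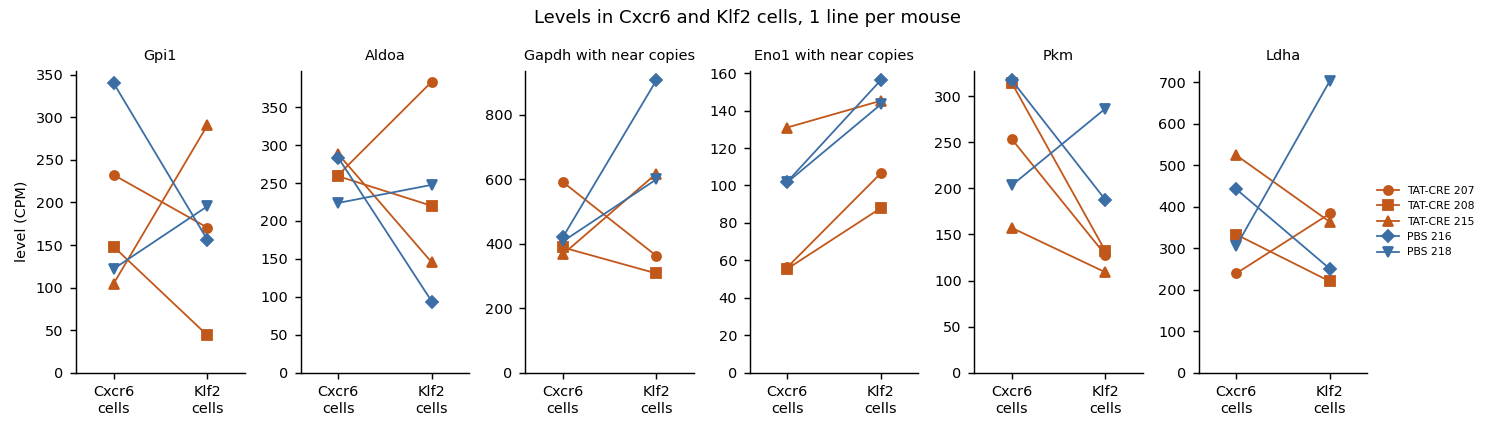
Level in CPM on linear axes from 0 for Cxcr6 cells (left) and Klf2 cells (right) of each mouse, joined by a line, for the 4 members tested and the near-copy sums of Gapdh and Eno1. Symbols are mice, without error bars. Lines run both ways for Aldoa, Gpi1, Ldha and Gapdh with near copies, Cxcr6 cells are higher in 4 of 5 mice for Pkm, and they are lower in all 5 mice for Eno1 with near copies.

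Cells were also split by lineage. CD4 cells had a Cd4 UMI and none of Cd8a or Cd8b1 (85 cells), CD8 cells had a Cd8a or Cd8b1 UMI and none of Cd4 (630 cells), 25 cells had both and 742 neither. CD4 sums held 13366 to 31866 UMIs per mouse and CD8 sums 71319 to 230840, so CD4 levels are coarse. Of 853 genes tested with the mouse as block, 5 (0.586%) were called and no member was, with 3 members tested. Cd4, Cd8a and Cd8b1 define the classes, and Ccl5 of the effector list was lower in CD4 cells, with a log2 fold change of -2.21 ± 0.20 (SE). Ly6c2, in no list and named after its values were seen, was lower too. DESeq2 called 12 genes (1.41%) and the 15-UMI filter, with 9 members tested, 81 of 7652 genes (1.06%), and no member was among them.

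Pkm was at 188, 589, 215, 299 and 626 CPM in CD4 cells of TAT-CRE 207, 208 and 215 and PBS 216 and 218, and at 247, 140.2, 224, 318 and 129 CPM in CD8 cells. TAT-CRE 208 and PBS 218 were far higher in CD4 cells, on 19 and 8 CD4 cells, and the other 3 mice were slightly lower. The log2 fold change was 0.76 ± 0.62 (SE), with an edgeR adjusted p of 0.96. Without TAT-CRE 208 it was 0.30 and without PBS 218 it was 0.36. Aldoa averaged 172 ± 114 CPM in CD4 cells and 216 ± 46.0 CPM in CD8 cells (SD, n = 5 mice each) and was lower in CD4 cells in 4 of 5 mice. Ldha averaged 255 ± 133 CPM in CD4 cells and 335 ± 116 CPM in CD8 cells and was lower in CD4 cells in 3 of 5 mice. Their log2 fold changes were -0.40 ± 0.66 and -0.35 ± 0.61 (SE), both with an edgeR adjusted p of 0.96. The Aldoa value was -0.12 without PBS 216 and -0.73 without PBS 218. Gpi1, with 15 UMIs in CD4 cells and 199 in CD8 cells, was below the filter.

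Gapdh with near copies differed in one direction in every mouse. It was at 753, 530.2, 682, 898 and 730.1 CPM in CD4 cells and at 433, 280.4, 463, 512 and 293 CPM in CD8 cells, in the same order of mice. CD4 cells were higher in 5 of 5 mice, as were 1.01% of 3651 genes with at least 50 UMIs in the 2 classes, while 10.4% were lower in all 5. Genes near that minimum have few UMIs in the shallow CD4 sums, so these shares are not matched for level. The means were 719 ± 133 CPM in CD4 cells and 396 ± 104 CPM in CD8 cells (SD, n = 5 mice each). The log2 fold change was 0.86 ± 0.34 (SE), with an edgeR unadjusted p of 0.026 and an adjusted p of 0.66, so the difference did not pass the threshold. CD4 sums held 9 to 24 of these UMIs per mouse. Gm5559, with the 0 differing bases shown above, is a large part of this sum and so not separate support. By itself it was higher in CD4 cells in 5 of 5 mice, with 35 UMIs in CD4 cells and 142 in CD8 cells.

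**Figure D4:**
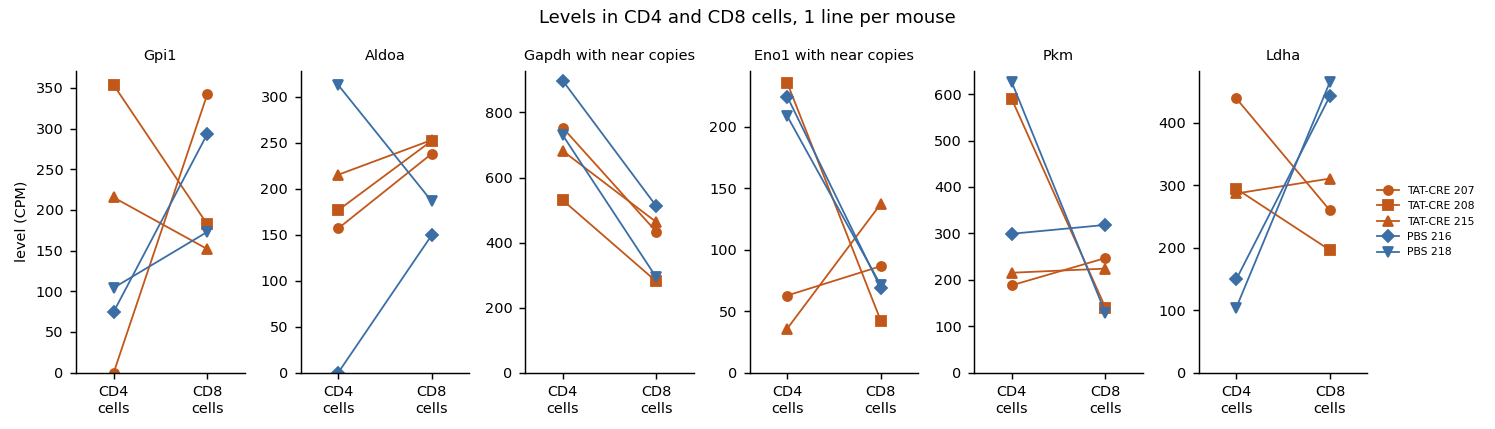
Level in CPM on linear axes from 0 for CD4 cells (left) and CD8 cells (right) of each mouse, joined by a line, for the same genes and sums. Symbols are mice, without error bars. CD4 cells are higher in all 5 mice for Gapdh with near copies, and lines run both ways in the other panels.

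The summed level of the 10 members, which holds almost no Gapdh counts, was close between classes. It averaged 1250 ± 198 CPM in Cxcr6 cells, 1209 ± 298 CPM in CD4 cells, 1187 ± 173 CPM in CD8 cells and 1184 ± 417 CPM in Klf2 cells (SD, n = 5 mice each). In that order, neighbours differed by far less than their SD. Gapdh with near copies, higher in CD4 than in CD8 cells in 5 of 5 mice, is outside this sum. The sum of the 10 members was higher in CD4 than in CD8 cells in 3 of 5 mice. With all near copies added it was higher in 4 of 5. For Cxcr6 over Klf2 cells these counts were 3 of 5 and 2 of 5. The closeness is thus stated only for the sum without near copies. Cells without a Cxcr6 or Klf2 UMI averaged 1384 ± 137 CPM and cells with both 1054 ± 620 CPM, the last from 49 cells. When each cell was thinned to 400 UMIs, 21.4% ± 3.94 of Cxcr6 cells and 28.7% ± 5.16 of Klf2 cells had a UMI of any member (SD, n = 5 mice each). Without thinning the shares were 50.3% ± 6.32 and 56.8% ± 13.3, at median depths of 1917 and 2395 UMIs. The share was lower in Cxcr6 cells while the mean CPM was not, so no order is read from it. Among CD4 cells the thinned share was 26.2% ± 14.2 and among CD8 cells 21.0% ± 1.35 (SD, n = 5 mice each). By injection, 22.5% ± 2.85 of cells in TAT-CRE mice (n = 3) and 21.5% ± 2.66 in PBS mice (n = 2) had a member UMI after thinning.

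Within the classes, the injection groups were compared once more. In Cxcr6 cells 0 of 2256 genes (0%) and in Klf2 cells 0 of 691 genes (0%) were called by edgeR, with 67 and 18 genes at an unadjusted p under 0.05, and DESeq2 called 0 in both. The test of whether the injection difference itself differed between the classes called 0 of 2495 genes (0%), with 60 at an unadjusted p under 0.05 and 0 called by DESeq2. In Cxcr6 cells the log2 fold changes were 0.09 ± 0.46 for Aldoa, -0.11 ± 0.52 for Pkm, -0.04 ± 0.45 for Ldha and -0.46 ± 0.65 for Gpi1 (SE). In Klf2 cells Ldha alone could be tested. It was at 384, 219.9 and 363 CPM in TAT-CRE mice and at 250.1 and 704 CPM in PBS mice, a log2 fold change of -0.65 ± 0.60 (SE). The difference of the Ldha effects between the classes was 0.47 ± 0.86 (SE) on the log2 scale, with an unadjusted p of 0.58.

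**Figure D5:**
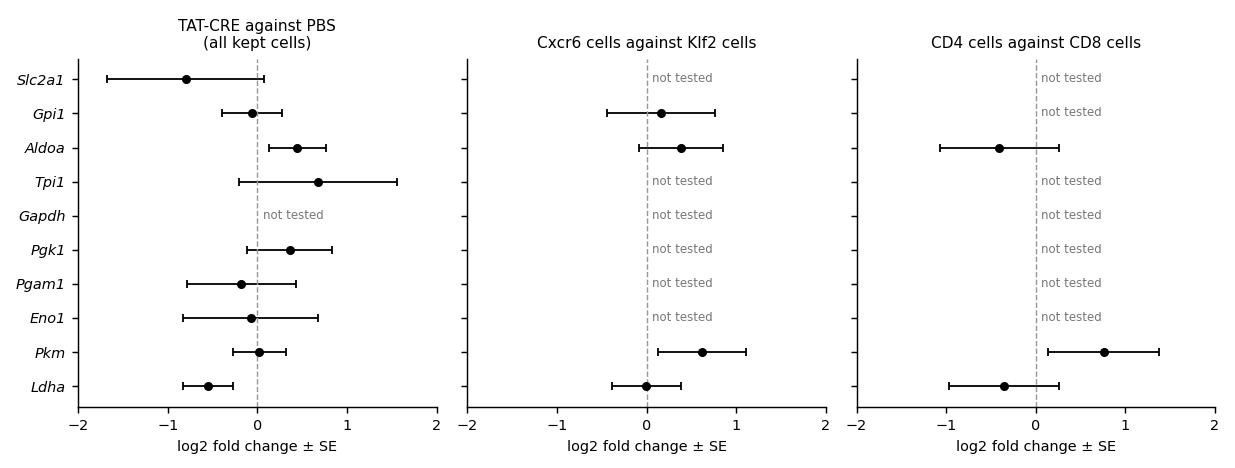
Log2 fold change of each member with its standard error in 3 comparisons, from edgeR fits across all genes tested. Positive values mean higher in TAT-CRE mice, Cxcr6 cells or CD4 cells. Ldha at -0.55 in TAT-CRE mice and Pkm at 0.76 in CD4 cells are among the points whose bars do not reach 0, and no member passed an adjusted p of 0.05.

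The steps around the members were present as well. Hexokinase, which traps glucose in the cell, was seen as Hk1 with 92 UMIs in 51 cells and as Hk2, the isoform induced on activation, with 13 UMIs in 4 cells. Phosphofructokinase, the main control point of the pathway, was seen as Pfkp with 218 UMIs in 80 cells and Pfkl with 56 in 22. The second glucose transporter of lymphocytes, Slc2a3, had 88 UMIs in 34 cells, and the lactate exporter Slc16a1 had 83 in 26. Of isoforms known from muscle, Eno3 had 44 UMIs in 10 cells, Pfkm 4 UMIs in 1 cell and Pgam2 0. The testis isoforms Pgk2 and Gapdhs were at 0 UMIs, and 0 UMIs allow up to 1.75 CPM (3 counts) over the 5 mice. Of 27 other glycolysis genes, 7 could be tested between TAT-CRE and PBS mice and 0 were called, with 3 above and 4 below 0. Of 31 genes of pyruvate entry and the TCA cycle 22 were tested, of 7 pentose phosphate genes 5, of 17 HIF and hypoxia targets 6 and of 15 genes of MYC and mTOR input 11, and 0 were called in each of these lists. Their median log2 fold changes were 0.08, -0.13, 0.05 and -0.03. The cycling, effector and early response lists had 0 calls among 5, 13 and 7 genes tested. Between Cxcr6 and Klf2 cells, 8 of 14 effector genes were tested and 3 were called higher, and 0 were called in the other lists. Between CD4 and CD8 cells, 7 effector genes were tested, 1 was called lower, and 0 were called in the other lists.

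The 5 genes whose level followed the summed member level most closely were Arhgap30, Hspa9, Itga4, Sem1 and BC031181. Their Pearson correlations were 0.87, 0.86, 0.85, 0.85 and 0.84 over 20 sums (5 mice by Cxcr6, Klf2, both and neither), on a log2 scale of CPM + 10, among 3322 genes with at least 100 UMIs. The sums share mice and libraries and differ widely in depth, and the best 5 of 3322 genes are high by selection, so the values are a description.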

How the data were processed

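Single T cells of 5 mice were profiled by a plate method (MARS-seq type) with UMIs. The authors deposited unnormalized UMI counts for every well and gene row, and a deposited count of sorted cells marks each well as holding 1 cell or none. Build mm10 and bcl2fastq 2.15.0.4 were used, per the submitters' processing notes. For the aligner, annotation, strand use and reads that map to several loci, the method is not given in the sources used here, so near copies, overlapping and antisense genes can share counts. A plate had 384 wells, of which 380 received 1 cell and 4 stayed empty. All 5 plates used the same 384 well barcodes with different pool barcodes, and 0 combined barcodes were shared. No doublet caller was run on this single-cell sort.

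Counts were summed per mouse and class and tested with edgeR 4.0.16 (quasi-likelihood, TMM, filterByExpr, Benjamini-Hochberg over all genes tested; R 4.3.3). Fits of Cxcr6 against Klf2 and CD4 against CD8 cells keep the mouse as a block, since both sums come from the same animal. Gm42418, Gm26917, mt-Rnr1 and mt-Rnr2 were left out of sums and library sizes. DESeq2 1.42.0 was an alternative. Near copies were found with blastn 2.17.0 against GENCODE M21 transcripts of mm10, and the sequences come from those transcripts. All 10 members, genes of 8 companion lists past the threshold and the 5 genes most like the summed level were named. The members and lists were chosen with earlier results of these data known. Alternatives were other filters, scalings, cell minimums, thinning and leaving out each mouse. A 15-UMI filter, near copies added, and cells with endothelial or NK markers left out were added after seeing the data.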

Additional observations from a re-analysis of the deposited data

Results flagged for a closer look

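Rows annotated as near copies of Gapdh held 772 UMIs in kept cells, against 2 on the Gapdh row and 0 in the 20 empty wells. With a shorter window of 500 bases, 88 copies qualified and held 741 UMIs. These rows lie outside the 10 members.

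Rows annotated as near copies of Eno1 held 104 UMIs, against 61 on the Eno1 row. Gm4735 was at 34.7, 26.9 and 52.3 CPM in TAT-CRE 207, 208 and 215 and at 56.5 and 55.2 CPM in PBS 216 and 218, and these groups do not overlap, as for 18.7% of genes with at least 50 UMIs. How the authors assigned reads shared by these rows was not tested.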

How the results depend on the processing

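No member that was tested passed an adjusted p of 0.05 under any alternative run. The fits on cells thinned to 400 UMIs tested 0 members, as did the TAT-CRE comparison in Klf2 cells without cycling cells. These fits therefore say nothing about the members. The Cxcr6 against Klf2 fit in CD8 cells only tested 1 member. Between TAT-CRE and PBS mice, DESeq2 called 1 gene and the fit without a filter 8, none of them a member. Between Cxcr6 and Klf2 cells the count of 7 moved to 17 with DESeq2, 40 without a filter, 37 with a 15-UMI filter, and 4 each with a minimum of 800 UMIs, in CD8 cells only and without cells holding an endothelial marker. Between CD4 and CD8 cells the count of 5 moved to 12 with DESeq2, 90 without a filter and 81 with the 15-UMI filter. The low filters also moved the median of all genes, to 0.80 and 0.60 for Cxcr6 against Klf2 cells and to -1.29 and -1.25 for CD4 against CD8 cells. The TAT-CRE comparison in Cxcr6 cells called 1 gene without a filter. Leaving out each mouse gave 3 to 8 calls between Cxcr6 and Klf2 cells, 3 of them without TAT-CRE 207, and 0 to 2 for TAT-CRE in Cxcr6 cells.

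Log2 fold changes near 0 changed sign. Pkm between TAT-CRE and PBS mice was -0.082 with a minimum of 800 UMIs, -0.061 without a mitochondrial limit and -0.081 without cycling cells. Ldha between Cxcr6 and Klf2 cells was 0.016 with DESeq2, 0.30 without a filter, 0.23 with the 15-UMI filter, 0.024 with ribosomal RNA genes kept, 0.014 without mitochondrial genes, 0.070 without a mitochondrial limit, 0.47 without cycling cells, 0.13 with cells of both UMIs added and 0.014 with near copies added. Gpi1 there was -0.0071 with a minimum of 200 UMIs. Between CD4 and CD8 cells, Pkm was -0.016 without a filter and Ldha 0.16 without cells holding a Cxcr6 UMI. The interaction of Gpi1 was 0.035 without a mitochondrial limit. The unthinned share of cells with a member UMI was -4.29 percentage points in TAT-CRE minus PBS mice, against 1.07 after thinning.

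Leaving out each mouse moved log2 fold changes through 0 as well. Between TAT-CRE and PBS mice, Pkm ranged from -0.080 to 0.14, Eno1 from -0.28 to 0.20 and Gpi1 from -0.27 to 0.18, and Pgam1 kept its sign from -0.43 to -0.027. Between Cxcr6 and Klf2 cells, Ldha ranged from -0.19 to 0.37 and Gpi1 from -0.069 to 0.55, and between CD4 and CD8 cells Ldha ranged from -0.76 to 0.029. For TAT-CRE in Cxcr6 cells, the ranges were -0.083 to 0.22 for Aldoa, -0.42 to 0.18 for Pkm, -0.43 to 0.20 for Ldha and -1.04 to 0.39 for Gpi1, and in Klf2 cells -1.23 to 0.36 for Ldha. The interaction ranged from -1.41 to 0.45 for Aldoa, -0.70 to 1.46 for Ldha and -1.05 to 0.88 for Gpi1.

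No paired analysis was possible because the TAT-CRE and PBS mice share no replicate number. For the class comparisons, the fit with no replicate block called 6 genes between Cxcr6 and Klf2 cells and 5 between CD4 and CD8 cells. Depth limits the rarer members most, and those below the filter were not tested. The causes were not tested.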
